A study of Sus scrofa with 92 samples.

Results

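Complement is the plasma cascade that tags and lyses microbes and recruits leukocytes, and most of its soluble proteins are secreted by hepatocytes. The transcripts described here are 9 liver-made components: C3, C5, C6, C8A, C9, CFB, CFI, C1R and C1S. They were chosen by gene symbol through the pig Ensembl identifiers, and 7 of the 9 had a row among the 25322 identifiers of the count table; C1R and C1S were not analysed here. All 7 passed the filter on low counts and were tested among 13667 genes.

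The libraries are RNA-seq of liver biopsies from juvenile male Yorkshire-Landrace pigs, 18 fasted (FS) and 5 carbohydrate prefed (CPF). All animals were fasted overnight, splenectomized, given a blunt chest injury, bled into hemorrhagic shock, given a liver crush injury and then resuscitated, and the CPF animals had received a bolus of Karo syrup before induction. No uninjured or sham group is among these libraries, so Baseline (B), taken after instrumentation and before injury, is the only reference, and injury, shock, resuscitation, surgery and elapsed time cannot be told apart. The other timepoints are 2, 8 and 20 hours into resuscitation (FR2, FR8 and FR20), and FR2vB denotes the change from B to FR2. Each animal gave 1 library at a timepoint, so replicates are separate animals. After 4 libraries were set aside, 88 remained, with 15, 18, 18 and 18 FS and 5, 5, 4 and 5 CPF libraries at B, FR2, FR8 and FR20. Of the animals, 3 FS and 2 CPF animals died.

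Library totals ran from 6877117 to 16613261 counts, and the members together took a median of 0.838% to 1.17% of the counts of a library, depending on the group. Of the libraries set aside, the FR8 library of CPF animal 3 held 4388 counts. The Baseline libraries of FS animals 17, 19 and 21 held 4, 899 and 5 albumin counts, and no member exceeded 18.5 CPM there. Some of the remaining libraries also stood apart. Over 7887 genes outside the complement lists, 14 libraries from 6 animals (9, 10, 13, 17, 19 and 21) were nearer to another timepoint than to their own by a margin of more than 0.3 in correlation. The FR8 libraries of FS animals 17, 19 and 21 were nearest Baseline (0.82, 0.56 and 0.83, against -0.61, -0.42 and -0.65 to FR8). Their FR20 libraries were nearest FR2. The FR20 library of CPF animal 13 was nearest Baseline. The reason was not tested. These libraries count in the FS and CPF levels and changes given with all animals. In FS animal 11, 319 of 3298 well-expressed genes were listed at 0 at FR2 and 316 at FR8. These 7 animals kept their labels, and counts of changed members are given with them and again without them (63 libraries).

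Complement is started by the classical, lectin and alternative pathways, which converge on cleavage of C3. CFB supplies the protease of the alternative pathway convertase. Cleavage of C5 then starts the terminal pathway, in which C6, C7, C8 and C9 assemble into the membrane attack complex, and CFI, a serine protease, inactivates the C3b and C4b that carry the cascade. Several of these proteins are also acute phase reactants, secreted in larger amounts during inflammation.

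The members did not move together after hemorrhagic shock. In FS animals C8A and CFB fell at every resuscitation timepoint, while C9 rose at FR8 and FR20. C3, C5, C6 and CFI did not pass the test from Baseline in edgeR with TMM scaling when all animals were used. In CPF animals 1 change passed, the fall of C8A at FR8. Adjusted p values here are from edgeR's quasi-likelihood test with a term for each animal, with Benjamini-Hochberg adjustment over all genes tested. Fold changes are log2 and given with a standard error (SE) derived from that test. The SE is the size of the log2 change divided by the square root of the test's F, and it is unstable for changes near 0. Levels are in CPM, counts divided by the TMM-scaled library size and brought to one common total, and since no transcript lengths were used, levels are compared within a gene and not between genes.

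In FS animals, 2 of the 7 members passed at FR2, 3 at FR8 and 3 at FR20. Of all genes tested, 41.4% passed at FS FR2vB (20.3% higher and 21.1% lower), 39.3% at FR8vB (19.9% higher and 19.5% lower) and 33.8% at FR20vB (17.4% higher and 16.4% lower). The members' shares are thus near the background, and the median log2 change of the 7 members was -0.21, -0.42 and -0.14, beside medians of -0.04, -0.00 and 0.04 over all genes. Only C8A also reached a log2 change of 1 in size, at FR8 and FR20, where 11.8% and 9.94% of all genes passed both thresholds. In CPF animals no member passed at FR2, 1 at FR8 and none at FR20, beside 3.41%, 13.3% and 0.893% of all genes, and the passing C8A change at FR8 also met both thresholds, as did 8.83% of genes.

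**Figure D1:**
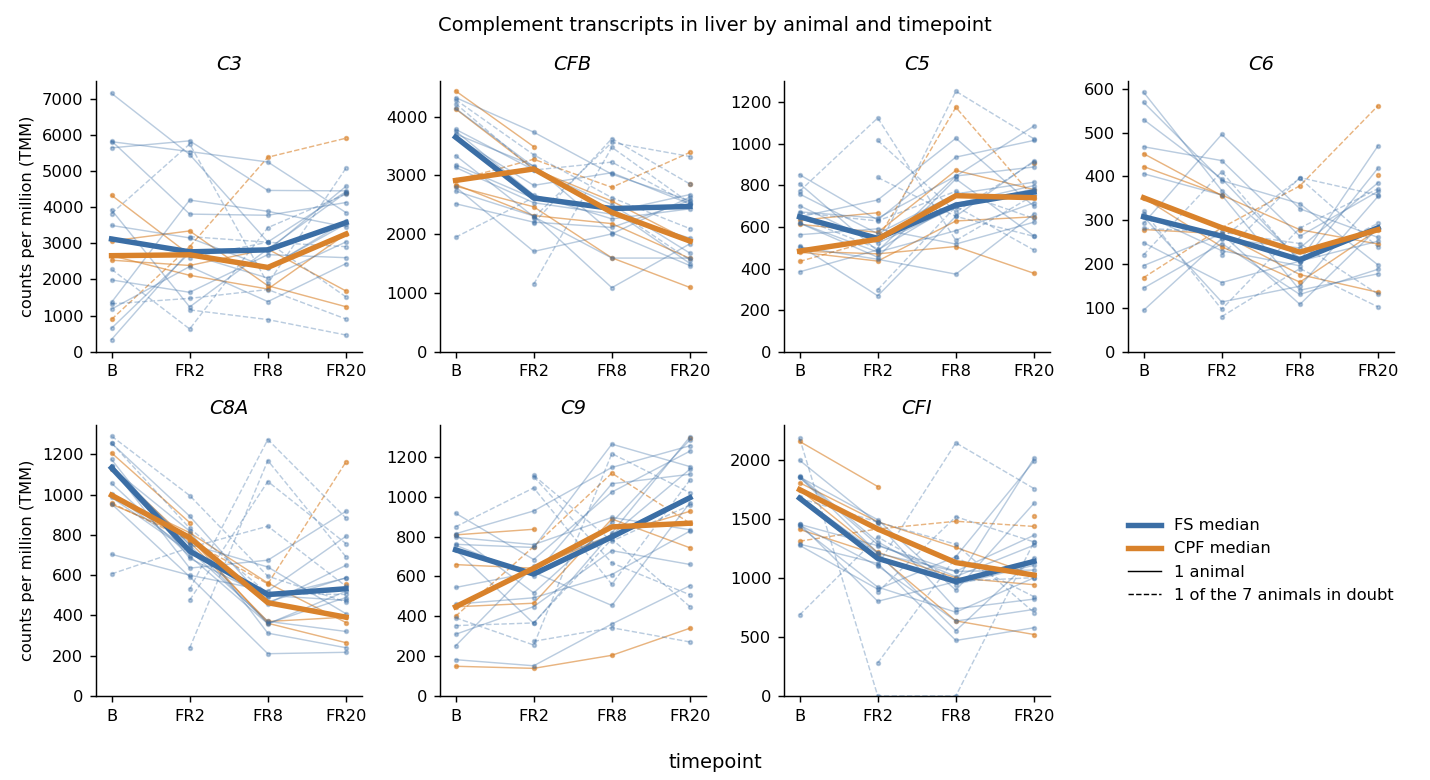
Level of each member (CPM, linear axis from 0) by timepoint, with a thin line for each animal and thick lines for the FS (blue) and CPF (orange) medians. Dashed lines mark the 7 animals in doubt. The FS median of C8A falls from 1133 at B to 504 at FR8, the FS median of C9 rises from 733 to 995 at FR20, and CFI lies at 0 at FR2 and FR8 in animal 11.

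C3 is the component on which all activation pathways converge. In FS livers its lowest, median and highest levels were 337, 3117 and 7143 CPM at B, 627, 2761 and 5830 at FR2, 888, 2815 and 5245 at FR8, and 461, 3570 and 5074 at FR20. The groups overlapped throughout, and Baseline levels of C3 spanned 21.2-fold between animals, against 2.13-fold for C8A. The log2 change was 0.18 ± 0.24 (SE) at FR2, 0.09 ± 0.24 at FR8 and 0.28 ± 0.24 at FR20, with adjusted p values of 0.575, 0.788 and 0.384. Timepoint accounted for 4.50% of the variation of log2 C3 over the 15 FS animals with all 4 libraries, and differences between animals for 44.8%.

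The C3 of single animals moved in either direction. In FS animal 1, which had the lowest Baseline, it was higher than B by 3.05 at FR2 and 3.76 at FR20 on the log2 scale, while 8 of the 15 FS animals were below their own Baseline at FR2. In the CPF animals, 3, 7, 8, 13 and 18, C3 stood at 4325, 3062, 2530, 893 and 2655 CPM at B. At FR20 the same animals had 4380, 1243, 1679, 5903 and 3254 CPM. The rise within animal 13, one of the animals in doubt, exceeded that in every other CPF animal, and without the 7 animals the CPF change turned from 0.10 to -0.39 at FR8 and from 0.14 to -0.30 at FR20. None of these 4 values passed.

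CFB, the alternative pathway protease, fell in FS animals. Its lowest, median and highest levels were 1948, 3652 and 4326 CPM at B, 1147, 2617 and 3736 CPM at FR2, 1089, 2436 and 3627 CPM at FR8, and 1465, 2472 and 3322 CPM at FR20. The ranges overlapped, but CFB was below the animal's own Baseline in 14 of 15 FS animals at each of the 3 timepoints. The log2 change was -0.42 ± 0.12 at FR2 (adjusted p = 0.00348), -0.49 ± 0.12 at FR8 (adjusted p = 0.000997) and -0.66 ± 0.12 at FR20 (adjusted p = 2.27e-05). The exception at FR2 and FR8 was animal 10, whose B, FR2 and FR8 libraries were each nearest another timepoint, and at FR20 animal 4. In the RefSeq annotation of Sscrofa11.1 CFB lies next to C2, its homolog in the classical pathway, which fell by 0.26, 0.29 and 0.35 in the same comparisons; whether the counting used strand is not given in the sources used here.

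In CPF animals 3, 7, 8, 13 and 18, CFB measured 4439, 2845, 2818, 2914 and 4133 CPM at B. At FR2 they had 3490, 2317, 2466, 3275 and 3110 CPM, at FR8 the 4 animals other than 3 had 2179, 1597, 2797 and 2562 CPM, and at FR20 the values were 2857, 1587, 1093, 3392 and 1882 CPM. CFB was lower than Baseline in 4 of 5, 4 of 4 and 4 of 5 CPF animals, the exception at FR2 and FR20 being animal 13. The FR20 library of that animal was nearest Baseline over genes outside the complement lists. The CPF change in CFB was -0.51 ± 0.23 at FR8 (adjusted p = 0.132) and -0.74 ± 0.22 at FR20 (adjusted p = 0.0688). Without animal 13 the FR20 change was -0.99, and with all 7 animals left out it was -0.98 ± 0.19 (adjusted p = 0.000206).

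C5 is the precursor of the anaphylatoxin C5a and of C5b, on which the membrane attack complex forms. In FS livers C5 had lowest, median and highest levels of 384, 649 and 851 CPM at B and 269, 545 and 1124 CPM at FR2. The same levels were 373, 705 and 1252 CPM at FR8 and 488, 768 and 1086 CPM at FR20. These ranges overlapped, and no change from Baseline passed (-0.14 ± 0.12, 0.20 ± 0.12 and 0.27 ± 0.12, the last with an adjusted p of 0.0851). Between FR2 and FR8, however, C5 rose by 0.34 ± 0.12 in FS livers (adjusted p = 0.0213) and was higher in 13 of 18 animals. That call was lost without animal 11, 19 or 22 (adjusted p up to 0.0623). The 18 animals include 17, 19 and 21, whose FR8 libraries were nearest Baseline. Without the 7 animals in doubt C5 was higher at FR8 than at FR2 in 10 of 12 FS animals. The CPF animals 7, 8, 13 and 18 had 479, 484, 434 and 613 CPM of C5 at B and 629, 506, 1175 and 872 CPM at FR8. C5 was thus above Baseline in 4 of 4 CPF animals at FR8, with a change of 0.62 ± 0.24 that did not pass in edgeR (adjusted p = 0.066) and passed in DESeq2 (adjusted p = 0.048). Without animal 13, one of the animals in doubt, it was 0.36 (adjusted p = 0.431).

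C6, the first protein to bind C5b, had FS medians of 308, 264, 210 and 283 CPM at B, FR2, FR8 and FR20, within ranges that overlapped from 94.5 to 592 at B and from 108 to 397 at FR8. It was below the animal's own Baseline in 13 of 15 FS animals at FR8, where the change was -0.42 ± 0.20 (adjusted p = 0.0899). Leaving out animal 1 or 19 brought this below the threshold (adjusted p of 0.0412 at the lowest). With the 7 animals in doubt left out, C6 fell by 0.71 ± 0.19 at FR8 (adjusted p = 0.00186) and rose again from FR8 to FR20 by 0.62 ± 0.19 (adjusted p = 0.0113). At FR20 it was higher than Baseline in 8 FS animals and lower in 7. In CPF animals 3, 7, 8, 13 and 18, C6 measured 452, 423, 279, 169 and 351 CPM at B and 404, 246, 136, 561 and 279 CPM at FR20. Animal 13 alone was thus higher than at its Baseline, and the CPF change was -0.14 ± 0.36. The FR20 library of animal 13 was the one nearest Baseline over genes outside the complement lists.

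C8A, which encodes the alpha chain of C8, had the largest change among the 7 members at FR8 and FR20 in both fed states under TMM scaling. With library totals alone, C9 had the larger one, at 0.79 against -0.75 for C8A at FS FR8vB and 1.13 against -0.67 at FS FR20vB; this scaling moved the median of all genes by 0.25 and 0.41 there. The lowest, median and highest FS levels of C8A were 606, 1133 and 1291 CPM at B, 238, 719 and 996 at FR2, 210, 504 and 1274 at FR8, and 217, 532 and 917 at FR20. C8A fell by 0.68 ± 0.17 at FR2 (adjusted p = 0.00105), 1.02 ± 0.18 at FR8 (adjusted p = 9.31e-06) and 1.09 ± 0.18 at FR20 (adjusted p = 2.27e-06) on the log2 scale. It was below the animal's own Baseline in 14 of 15 animals at each timepoint. Timepoint accounted for 58.6% of its variation over the 15 animals, against 16% between animals.

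The overlap between the B and FR8 levels of C8A lay in the libraries in doubt. Over the 12 FS animals left without them, C8A ranged from 704 to 1256 CPM at B and from 210 to 675 at FR8, so that the groups did not overlap, and it was lower than Baseline in 12 of 12 animals at FR2 and FR8. The log2 changes were then -0.57 ± 0.14, -1.34 ± 0.14 and -1.12 ± 0.14 at the 3 timepoints. At FR20 it was lower in 11 of 12, the other being animal 4, with 0.17 above its Baseline on the log2 scale. Of the 7 animals, 6 were left out because a library was nearer another timepoint over genes outside the complement lists. This choice favours separate B and FR8 levels in any gene that follows the common time course. Of all genes, 55.2% passed at FS FR8vB in this setting. The share without overlap was not counted, so the separation is not read as particular to C8A.

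In the CPF animals 3, 7, 8, 13 and 18, C8A stood at 1208, 998, 953, 958 and 1127 CPM at B and at 862, 811, 787, 772 and 765 at FR2. At FR8 animals 7, 8, 13 and 18 had 561, 361, 557 and 370, and at FR20 the 5 animals had 555, 364, 264, 1163 and 391. Every FR2 and FR8 value lay below every Baseline value, and at FR20 only the library of animal 13 lay within the Baseline range. How many of all genes separated in this way was not counted. The FR20 library of animal 13 was itself nearest Baseline over genes outside the complement lists (correlation 0.68, against -0.30 to FR20). C8A fell by 1.19 ± 0.34 at FR8 (adjusted p = 0.0166); this call was lost without animal 8 or animal 18 (adjusted p up to 0.105). The FR20 change was -1.07 ± 0.32 (adjusted p = 0.0704) and, without the 7 animals in doubt, -1.48 ± 0.24 (adjusted p = 1.99e-05).

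C9, the protein that polymerizes into the pore of the membrane attack complex, went the other way. In FS livers C9 had a lowest, median and highest level of 182, 733 and 917 CPM at B and 151, 611 and 1107 CPM at FR2. At FR8 these levels were 342, 798 and 1264 CPM, and at FR20 they were 271, 995 and 1301 CPM. The ranges overlapped, since Baseline levels differed 5.04-fold between animals, but C9 was above the animal's own Baseline in 13 of 15 animals at FR8 and in 15 of 15 at FR20. It rose by 0.54 ± 0.16 at FR8 (adjusted p = 0.00419) and 0.73 ± 0.16 at FR20 (adjusted p = 0.000212), and it did not pass at FR2 (0.11 ± 0.16). Without the term for each animal, which removes these differences between animals, the FR8 change of C9 was 0.43 ± 0.24 and did not pass (adjusted p = 0.166).

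In CPF animals 3, 7, 8, 13 and 18, C9 measured 808, 659, 149, 400 and 447 CPM at B and 836, 641, 138, 750 and 465 CPM at FR2. At FR8 animals 7, 8, 13 and 18 had 809, 204, 1118 and 888 CPM, and at FR20 the 5 animals had 1294, 927, 340, 867 and 743 CPM. C9 was above Baseline in 3 of 5 animals at FR2, 4 of 4 at FR8 and 5 of 5 at FR20, and animal 8 had the lowest C9 of the group at each of the 4 timepoints. The CPF changes were 0.78 ± 0.30 at FR8 (adjusted p = 0.0668) and 0.84 ± 0.28 at FR20 (adjusted p = 0.109). The FR20 change without the 7 animals was 0.79 ± 0.24 and passed (adjusted p = 0.0167).

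CFI, the inhibitor among the members, was listed at exactly 0 in the FR2 and FR8 libraries of FS animal 11, where many other well-expressed genes, including the C4BPB gene of the C4b-binding protein, were at 0 as well. In the other FS libraries it was measured throughout. With all animals the FS medians were 1675, 1165, 969 and 1139 CPM at B, FR2, FR8 and FR20, and the changes were -0.70 ± 0.38, -0.90 ± 0.39 and -0.51 ± 0.38, none of which passed (adjusted p = 0.134, 0.0612 and 0.308). Without animal 11 the spread was smaller, and CFI fell by 0.49 ± 0.16 at FR2 (adjusted p = 0.0108), by 0.68 ± 0.17 at FR8 (adjusted p = 0.00084) and by 0.45 ± 0.16 at FR20 (adjusted p = 0.0276).

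Over the 12 FS animals without the 7 in doubt, CFI ranged from 1276 to 1996 CPM at B and from 469 to 1180 at FR8, with no overlap. As for C8A, the choice of animals favours such a separation, and the share of all genes without overlap was not counted. CFI was lower than Baseline in 12 of 12 animals at FR2 and FR8 and in 10 of 12 at FR20. Its fall at FR8 was 0.99 ± 0.14 (adjusted p = 2.65e-08), where 55.2% of all genes passed. From FR8 to FR20 it rose by 0.55 ± 0.13 (adjusted p = 0.0014). In CPF animals 3, 7, 8, 13 and 18, CFI stood at 2156, 1806, 1410, 1311 and 1748 CPM at B and 1525, 1023, 520, 1436 and 942 at FR20, lower than Baseline in all but animal 13. The CPF change at FR20 was -0.71 ± 0.68 with all animals (adjusted p = 0.647) and -0.90 ± 0.23 without the 7 (adjusted p = 0.00582). Among the animals left out, animal 13 had its FR20 library nearest Baseline.

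**Figure D2:**
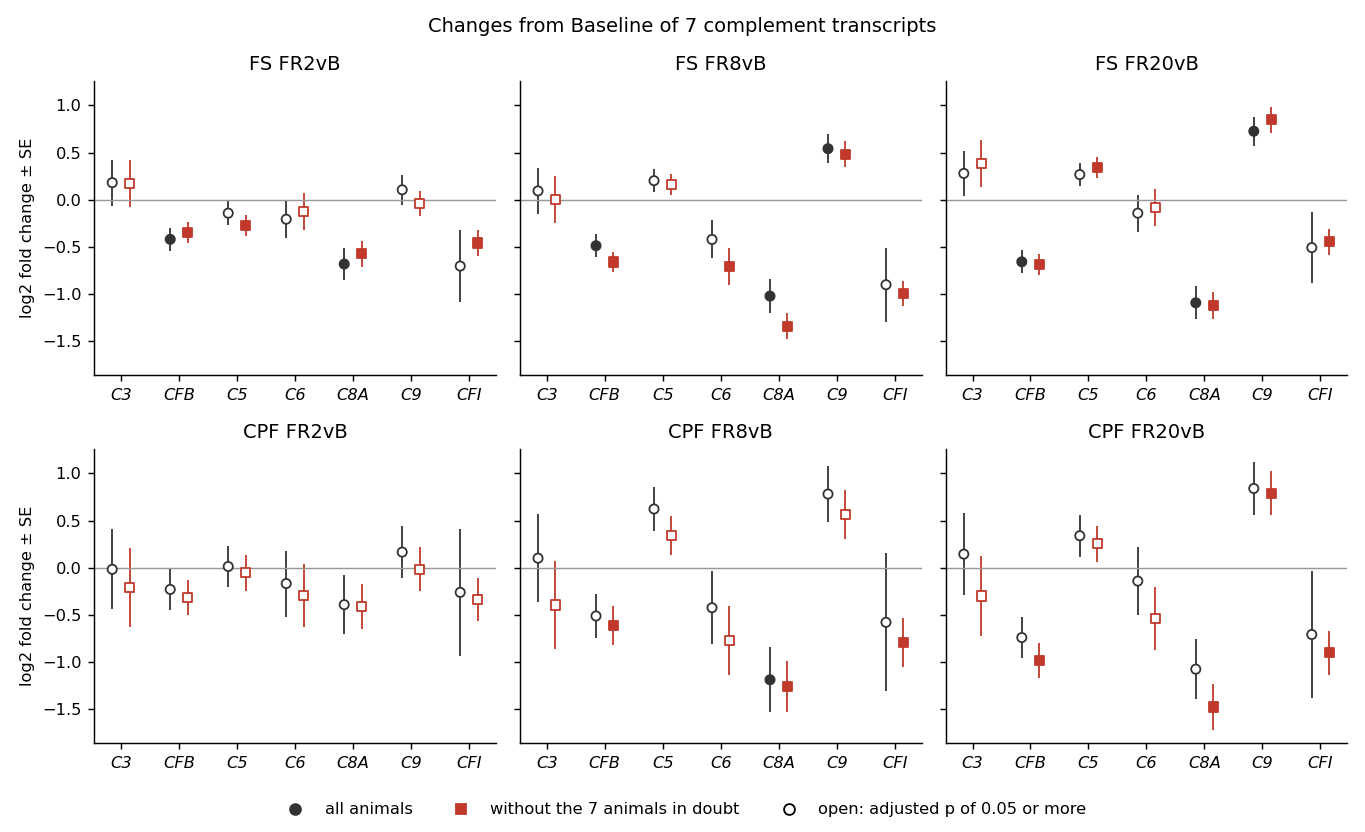
Log2 fold change from Baseline with its SE (vertical axis) of the 7 members at FR2, FR8 and FR20 in FS (top) and CPF (bottom) animals. Circles are fits with all animals and squares fits without the 7 animals in doubt, filled where the adjusted p was under 0.05. C8A and CFB lie below 0 and C9 above 0 at FR8 and FR20 in both fed states, and the error bars of CFI shrink without the animals in doubt.

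Without the 7 animals in doubt, an alternative chosen after seeing the data, more members passed, and so did a larger share of all genes. Leaving out animals with a library nearer another timepoint favours changes over time in genes at large. The added calls are thus no separate support. In FS animals C5, C8A, CFB and CFI fell at FR2, C6, C8A, CFB and CFI fell and C9 rose at FR8, and C8A, CFB and CFI fell and C5 and C9 rose at FR20, so that 4, 5 and 5 members passed beside 53%, 55.2% and 45.9% of genes. In CPF animals none passed at FR2, C8A, CFB and CFI fell at FR8, and C8A, CFB and CFI fell and C9 rose at FR20, beside 8.22%, 22.3% and 15.6% of genes. The fall of C5 at FR2 (-0.27 ± 0.11, adjusted p = 0.0376) and its rise at FR20 (0.35 ± 0.11, adjusted p = 0.00921) thus stood in opposite directions within FS livers. C3 passed in no comparison of this alternative.

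Between later timepoints, C5 and C9 were the members that passed in FS animals from FR2 to FR8, beside 28.4% of genes, and C9 rose by 0.44 ± 0.15 (adjusted p = 0.0206), a call that was lost without animal 9 or 11 (adjusted p up to 0.0675). No member passed from FR8 to FR20 in FS (6.39% of genes), from FR2 to FR8 in CPF (7.21%) or from FR8 to FR20 in CPF (0.022%). From FR2 to FR8 in FS, 6 of the 7 members passed without the 7 animals in doubt, beside 50% of genes: C6, C8A, CFB and CFI fell further, with C8A at -0.77 ± 0.14, and C5 and C9 rose. From FR8 to FR20 C6, C9 and CFI then rose, beside 30.4% of genes, and in CPF C8A alone fell from FR2 to FR8 (-0.85 ± 0.27, adjusted p = 0.0217), beside 17.6%.

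The question of the study was whether the fed state alters the response. The CPF change minus the FS change passed for 0 of the 7 members at FR2vB, FR8vB and FR20vB in edgeR and in DESeq2. At an unadjusted p under 0.05, 0 members were counted by either tool, beside 2.9%, 3.42% and 3.81% of genes in edgeR. Of all 13667 genes tested, 0 passed in edgeR in each comparison, and 0, 0 and 2 passed in DESeq2. The 0 of 7 is thus the background rate and does not show that the fed states respond alike. At FR8vB the difference was -0.17 for C8A (95% interval -0.93 to 0.59), 0.24 for C9 (-0.43 to 0.91), -0.03 for CFB (-0.55 to 0.50) and 0.42 for C5 (-0.12 to 0.95). The interval for CFI (-1.33 to 1.97) was the widest of the 7 at FR8vB with all animals, animal 11 included. Without the 7 animals in doubt 0 members passed and 0 had an unadjusted p under 0.05 in edgeR in each of the 3 comparisons. Of all genes, 0 passed there too. The FR8vB difference was 0.20 for CFI (-0.38 to 0.78) and 0.08 for C8A (-0.52 to 0.68). In that setting 2, 2 and 7 of the 7 differences were below 0 at FR2vB, FR8vB and FR20vB. Their medians were 0.03, 0.08 and -0.36, beside 0.01, -0.00 and 0.00 over all genes. With all animals the FR20vB differences lay on both sides of 0. CPF against FS at a single timepoint also passed for 0 members at B, FR2, FR8 and FR20 with either tool. Of all genes, 4, 0, 0 and 0 passed there in edgeR and 70, 0, 9 and 2 in DESeq2. At an unadjusted p under 0.05, edgeR counted 0 members at each timepoint and DESeq2 1 at B and 0 at the others. The shares of all genes at that threshold were 7.66%, 5.58%, 5.17% and 3.25% in edgeR. Leaving out the 7 animals also gave 0 members passing and 0 unadjusted in edgeR at each timepoint. Of all genes, 3, 7, 0 and 1 passed then at B, FR2, FR8 and FR20. The members lower in CPF were 3, 3, 6 and 7 of 7, with medians of 0.00, 0.03, -0.08 and -0.28. The all-gene medians were -0.03, -0.02, -0.00 and 0.00.

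Animals that died were compared with those that lived at each timepoint, with fed state in the model. No member passed at any timepoint in edgeR or DESeq2. The 7 animals in doubt all lived, so that the libraries standing apart lie in one arm. At FR8 all 7 members had lower values in the animals that died, with a median log2 difference of -0.54 beside -0.01 over all genes. At FR8, C5 (-0.55 ± 0.20), C9 (-0.74 ± 0.30) and CFB (-0.54 ± 0.22) had an unadjusted p under 0.05 in edgeR and 4 members in DESeq2, beside 2.22% and 3.38% of all genes, but the adjusted p was 1 for each member in edgeR. At FR2 the unadjusted count was 2 with both tools (C5 -0.54 ± 0.24 and C9 -0.81 ± 0.37 in edgeR), beside 5.52% and 6.56% of all genes, and at B and FR20 it was 0 with both. With those 7 animals left out, the FR8 median was -0.32, 6 of the 7 members were lower, C8A was at 0.08 ± 0.25, and C5 (-0.49 ± 0.19) and C9 (-0.79 ± 0.30) alone had an unadjusted p under 0.05, beside 2.53% of genes. No member passed at any timepoint in that setting either, and the unadjusted counts were 0, 2, 2 and 0 at B, FR2, FR8 and FR20. Only 5 animals died.

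The other complement genes were taken from a list of 40, of which 25 had a row and 24 were tested. In FS animals 1 rose and 15 fell at FR2, 2 rose and 15 fell at FR8, and 1 rose and 11 fell at FR20. Of all genes, 20.3%, 19.9% and 17.4% rose in these comparisons and 21.1%, 19.5% and 16.4% fell. In CPF animals none passed at FR2, 1 rose and 9 fell at FR8, and 1 fell at FR20, beside 3.41%, 13.3% and 0.893% of all genes. The list's median log2 change was -0.40, -0.48 and -0.33 in FS animals, below the all-gene medians given above. Without the 7 animals in doubt the counts were 1 up and 14 down, 2 up and 17 down, and 2 up and 12 down in FS. In CPF they were 0 and 0, 1 up and 10 down, and 0 up and 12 down. Of all genes, 53%, 55.2% and 45.9% passed there in FS and 8.22%, 22.3% and 15.6% in CPF. The counts depended on the scaling and the libraries. With library totals alone they were 1 up and 6 down, 2 up and 8 down, and 4 up and 7 down in FS. Of all genes, 38.8%, 44% and 53.8% passed there, and 71.1%, 75.9% and 89.3% of those were higher. With the 3 Baseline libraries without albumin kept, the FS counts were 0 and 2, 2 and 3, and 0 and 2. The shares of all genes were then 31.4%, 29.8% and 22.7%.

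**Figure D3:**
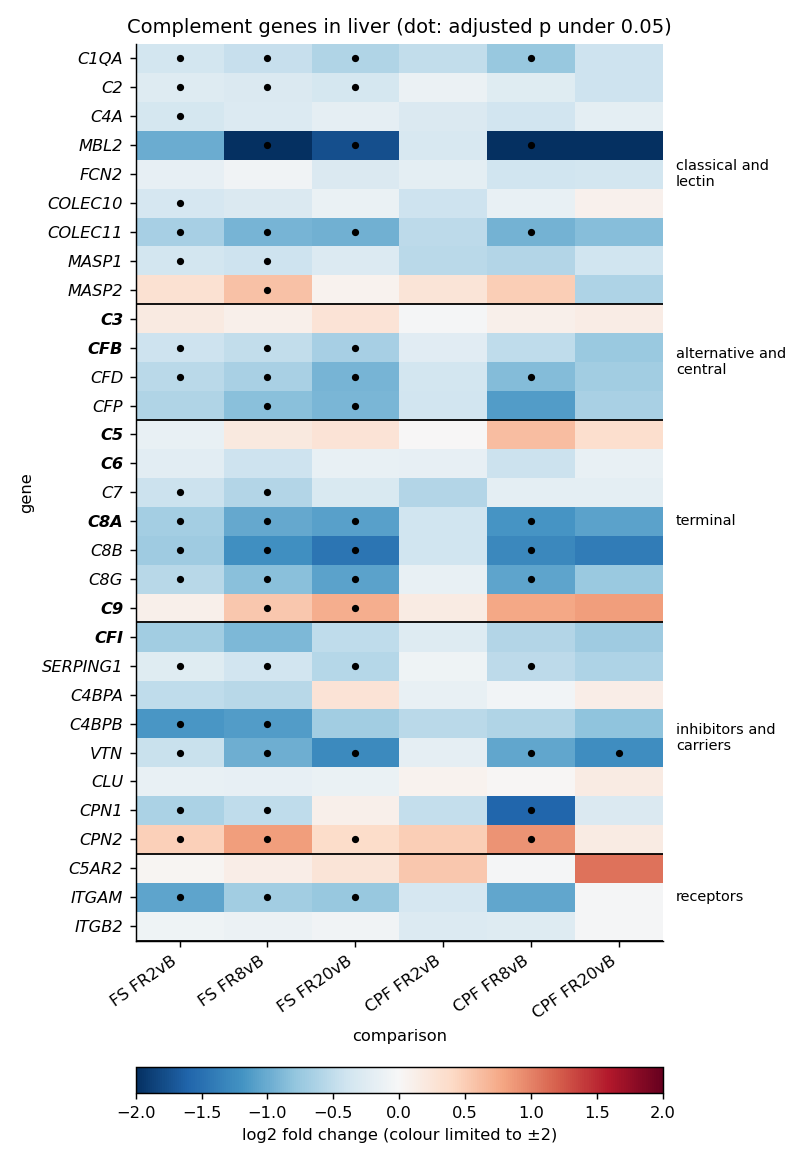
Log2 fold change from Baseline (colour, limited to 2 in size; blue lower, red higher) of 31 complement genes grouped by role, with the 7 members in bold, in the 6 changes from Baseline. A dot marks an adjusted p under 0.05. The 3 C8 chain genes are blue with a dot at every FS timepoint, while C9 in the same terminal group is red with a dot at FR8 and FR20.

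The fall of C8A was shared by the genes of the chains with which it forms C8. C8B, which encodes the beta chain and lies next to C8A in the same annotation, had an FS median of 1049 CPM at B, 657 at FR2, 415 at FR8 and 390 at FR20. It fell by 0.71 ± 0.20, 1.23 ± 0.21 and 1.46 ± 0.21 in FS animals and by 1.29 ± 0.40 in CPF animals at FR8. The gamma chain gene C8G fell by 0.55 ± 0.15, 0.83 ± 0.15 and 1.07 ± 0.15 in FS and by 1.05 ± 0.30 in CPF at FR8. C8B was lower than the animal's own Baseline in 15, 14 and 14 of 15 FS animals, and C8G in 13, 14 and 15. Of the 7 terminal pathway genes tested, 4 fell and none rose at FS FR2vB, 4 fell and 1 rose at FR8vB, and 3 fell and 1 rose at FR20vB, the one that rose being C9. Without the 7 animals 5 fell, 5 fell and 1 rose, and 4 fell and 2 rose. Of all genes, 41.4%, 39.3% and 33.8% passed with all animals and 53%, 55.2% and 45.9% without the 7.

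**Figure D4:**
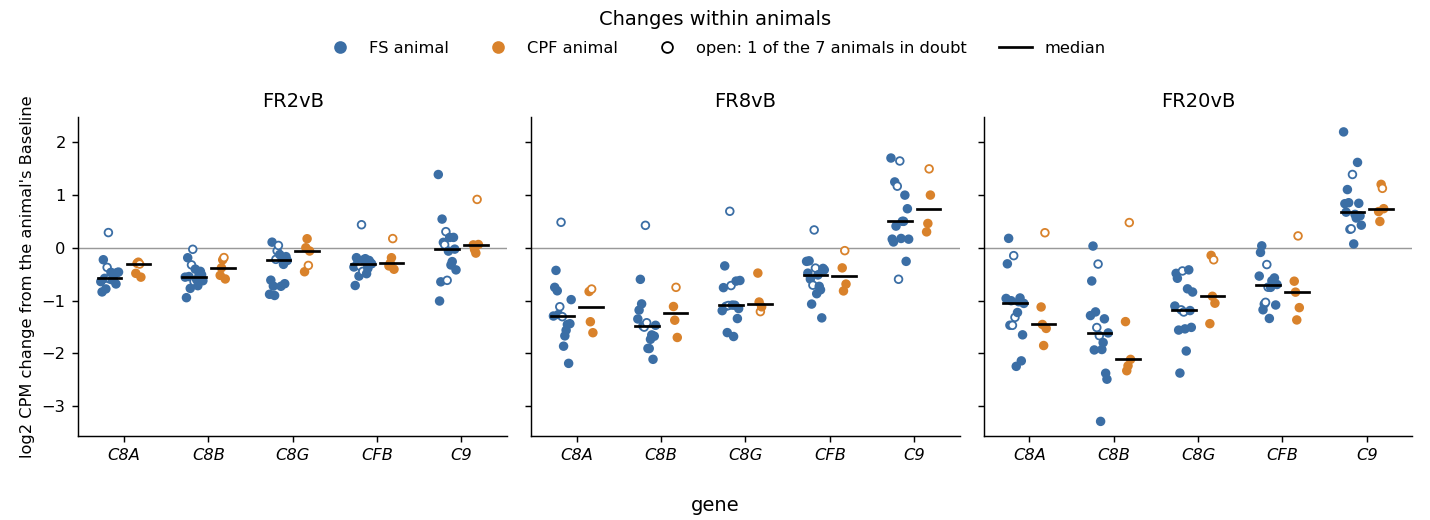
Log2 change from the animal's own Baseline in CPM for C8A, C8B, C8G, CFB and C9, with a point for each FS (blue) and CPF (orange) animal and a black bar at the median. Open points are the animals in doubt. C8A lies below 0 in 14 of 15 FS animals at each timepoint, and C9 lies above 0 in 15 of 15 at FR20.

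Among the genes that start the cascade, MBL2, the mannose-binding lectin, fell by 2.72 ± 0.53 at FR8 and 1.76 ± 0.49 at FR20 in FS animals, and its change in CPF animals at FR8 was -2.70 ± 0.95. Its FS range at B ran from 13.1 to 1451 CPM, so that animals differed widely before injury. COLEC11, another lectin, fell by 0.66 ± 0.14 at FR2 and 0.96 ± 0.15 at FR20 in FS, with medians of 117, 70.9, 56.4 and 56.4 CPM at B, FR2, FR8 and FR20. MASP2, a protease bound to these lectins, rose by 0.59 ± 0.20 at FR8. Of 9 classical and lectin genes tested, 6 fell at FS FR2vB, 5 fell and 1 rose at FR8vB, and 4 fell at FR20vB. Without the 7 animals 6 fell, 7 fell and 1 rose, and 4 fell. The shares of all genes passing were 41.4%, 39.3% and 33.8% with all animals and 53%, 55.2% and 45.9% without the 7.

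Among inhibitors and carriers, VTN, vitronectin, which blocks assembly of the membrane attack complex, fell by 0.45 ± 0.17, 0.98 ± 0.18 and 1.28 ± 0.18 in FS and by 1.04 ± 0.35 at FR8 and 1.25 ± 0.32 at FR20 in CPF, the only other complement gene to pass at CPF FR20vB. C4BPB fell by 1.16 ± 0.36 at FR2 and 1.12 ± 0.37 at FR8 in FS, and by 1.00 ± 0.19 and 1.27 ± 0.19 without the 7 animals, among them the one where it was listed at 0. The carboxypeptidase N subunit genes diverged, CPN1 (catalytic) falling by 0.63 ± 0.20 at FR2 and 0.50 ± 0.21 at FR8, and CPN2 (regulatory) rising by 0.47 ± 0.14, 0.83 ± 0.14 and 0.37 ± 0.14 in FS. In CPF at FR8 CPN1 fell by 1.58 ± 0.40 and CPN2 rose by 0.90 ± 0.27. SERPING1, the inhibitor of the C1 proteases, fell by 0.24 ± 0.09 at FS FR2, the smallest fall of the list to pass there. Its FS medians were 4811, 4104, 3600 and 3202 CPM at B, FR2, FR8 and FR20. ITGAM, the alpha chain of a leukocyte receptor for C3 fragments, fell by 1.05 ± 0.23 at FS FR2. Its level was low, with FS medians of 2.28 CPM at B and 1.06 at FR2 and at most 55 and 43 counts in a library.

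Part of the hepatocyte markers fell, as C8A and CFB did, and the rest did not. Of all genes, 21.1%, 19.5% and 16.4% fell at FS FR2vB, FR8vB and FR20vB, and 20.3%, 19.9% and 17.4% rose. Of 12 markers tested, 1 rose and 7 fell at FS FR2vB, and 6 fell at both FR8vB and FR20vB, with ALB at -0.71 ± 0.24, -1.43 ± 0.25 and -2.22 ± 0.26. Their summed level in FS libraries lay between 80800 and 230569 CPM at B and between 51135 and 160535 CPM at FR2. It lay between 52349 and 197505 CPM at FR8 and between 23081 and 147984 CPM at FR20. None of the 12 was at 0 throughout a group. In bulk tissue, fewer hepatocytes and less transcript per hepatocyte cannot be told apart, and the part of cell composition in the falls of C8A, CFB and CFI was not tested.

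Some markers of other cell types passed as well, beside 41.4%, 39.3% and 33.8% of all genes at FS FR2vB, FR8vB and FR20vB. The lists are short, and these counts are not read as changes of a cell type. In FS animals, 1 rose and 3 fell, 1 rose and 4 fell, and 2 rose and 3 fell of 7 Kupffer and macrophage markers at FR2, FR8 and FR20, with group medians of the summed level from 788 to 1125 CPM. Of 3 neutrophil markers tested 1, 1 and 2 rose, with no summed level in FS above 12.5, and CSF3R was at 0 in every library. Of 7 fibroblast and stellate markers 1 rose at each timepoint and 3, 3 and 0 fell; of 3 endothelial markers 1 rose at each; of 4 erythroid markers 1, 3 and 2 fell; and of 8 striated muscle markers 2, 1 and 1 fell, at a summed level of at most 167. Their part in the members' changes was not tested.

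Acute phase genes and their regulators were read beside C9 from lists of 20 each, of which 10 and 15 were tested. Of the acute phase genes 5 rose and 1 fell at FS FR2vB, 7 rose and 1 fell at FR8vB, and 5 rose and 1 fell at FR20vB, with medians of 0.56, 1.14 and 0.68. Of all genes, 20.3%, 19.9% and 17.4% rose in these comparisons and 21.1%, 19.5% and 16.4% fell. ITIH4, a major acute phase protein of the pig, rose by 1.60 ± 0.38, 2.56 ± 0.39 and 2.60 ± 0.39, and the protease inhibitor gene TIMP1 rose by 2.09 ± 0.54, 1.71 ± 0.52 and 2.41 ± 0.54. The smallest rises that passed were those of CRP at FR2 (0.62 ± 0.24), CP at FR8 (0.36 ± 0.14) and FGG at FR20 (0.87 ± 0.22), and ITIH3 fell by 0.50 ± 0.15, 1.02 ± 0.15 and 1.29 ± 0.15. Of the regulators 8 rose and 0 fell at FR2, 4 rose and 3 fell at FR8, and 3 rose and 3 fell at FR20, beside the same shares of all genes. STAT3, the transcription factor downstream of the interleukin 6 receptor, rose by 1.33 ± 0.23, 1.23 ± 0.22 and 0.73 ± 0.22, CEBPA rose by 1.21 ± 0.25, 1.48 ± 0.25 and 1.04 ± 0.25, NFKBIA fell by 0.95 ± 0.18 at FR8 and FOS by 1.35 ± 0.54. The interleukin 6 receptor gene IL6R fell by 1.01 ± 0.22 at FR20, and RELA rose by 0.26 ± 0.09 at FR2.

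Likeness between genes was described by Pearson's r of log2 CPM over 88 libraries after each animal's mean was subtracted. The libraries share timepoints, animals and depth, so these values carry no test. Of the 21 pairs among the 7 members, 15 were positive, with a range of -0.51 to 0.91 and a median of 0.27. C8A and CFB were the most alike (0.91), followed by C5 and C9 (0.79) and C3 and C6 (0.72), and C8A and C9 were the least alike (-0.51). CFI was at 0.31 to C8A and 0.26 to CFB over these libraries, which include the zeros of animal 11. Over the 63 libraries without the animals in doubt it was at 0.90 and 0.80, above C5 and C9 (0.77), and C8A and CFB were at 0.91. C8A was also like C8B (0.97), VTN (0.92), C8G (0.88) and ALB (0.86), and unlike ITIH4 (-0.80), to which C9 was alike (0.77).

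**Figure D5:**
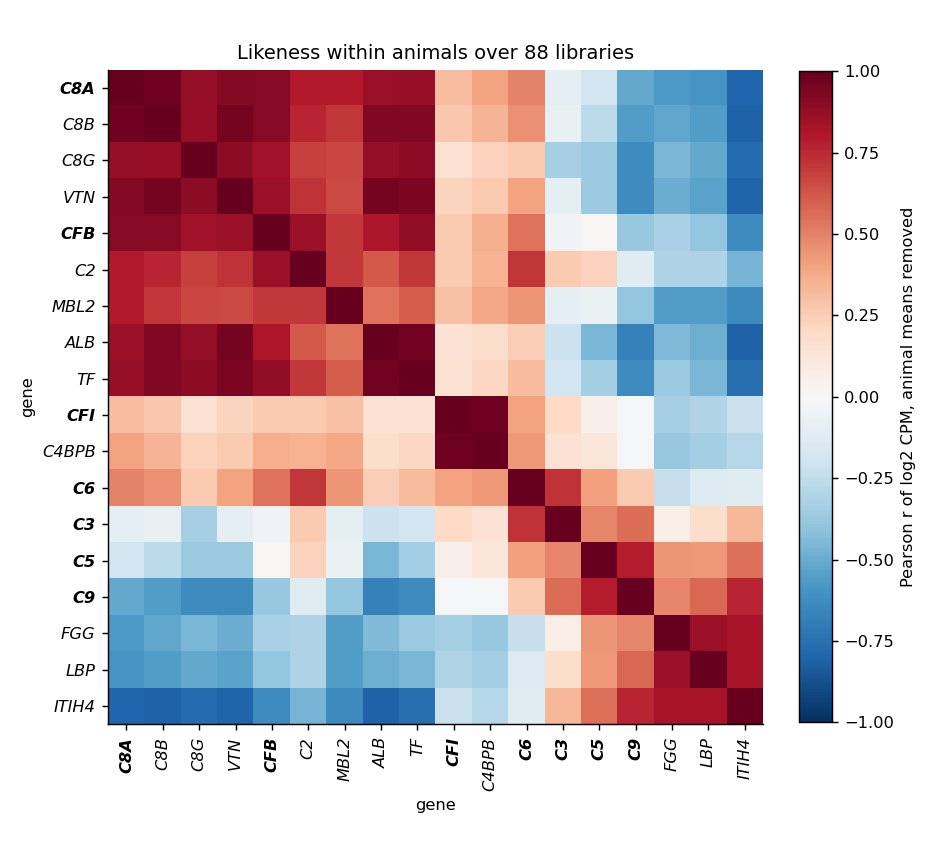
Pearson's r (colour, from -1 to 1) between the log2 CPM of 18 genes over 88 libraries, with animal means removed and the members in bold. The order of the genes was set by hand. C8A and CFB share a red block with C8B, C8G, VTN, ALB and TF. C9 was at 0.49, 0.57 and 0.77 to the acute phase genes FGG, LBP and ITIH4. C5 was at 0.44, 0.44 and 0.55 to them, beside 0.49 to C3. C3 is most like C6 in the plot (0.72).

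Outside the members, the genes most like C8A were C8B (0.97), AFM (0.96) and SERPIND1 (0.95), which encode plasma proteins, and those most like CFB were F2 (0.93), SERPING1 (0.91) and C8B (0.91). C6 was most like HSD17B4 (0.93), ALDH6A1 (0.91) and AKR1D1 (0.89), C3 like IQGAP2 (0.90), SND1 (0.89) and BSDC1 (0.88), C5 like LARS2 (0.81), RCBTB1 (0.81) and MRPL39 (0.80), and C9 like ALDH1A1 (0.88), FAM98B (0.86) and SCFD1 (0.86). The genes most like CFI were LAMP2 (0.99), SERPINC1 (0.99) and GPC3 (0.98) with the libraries of animal 11 included, and DECR1 (0.94), GC (0.94) and PON1 (0.94) over the 63 libraries without the 7 animals in doubt.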

How the data were processed

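Liver RNA of 23 pigs was sequenced as oligo-dT libraries, and the deposited table holds read counts per pig Ensembl gene that the authors made with HTSeq. Per the labels, reads were aligned with TopHat 1.5.0 to Sscrofa 10.2, and CASAVA 1.8.2, SAMtools and edgeR 3.2.4 were also used. All columns of the table were matched to a sample (0 unmatched). Of 92 libraries, 4 were left out (3 Baseline libraries with almost no albumin counts and 1 library of 4388 counts). The 88 used held 6877117 to 16613261 counts, so that counting error is small beside the spread between animals for the members.

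Genes whose CPM summed to at least 10 over the libraries were kept, scaled by TMM (factors of 0.756 to 1.45) and tested with edgeR 4.0.16 (glmQLFit and glmQLFTest, R 4.3.3, limma 3.58.1). Changes over time were fitted with a term for each animal. The 95% intervals were built from the SE and the residual degrees of freedom of that fit (59 with all animals). The animal identifiers in the labels show which libraries come from the same animal, and the residuals of such pairs had a median correlation of 0.205 (94 of 126 over 0.1), against -0.0235 for different animals. CPF against FS and died against lived were fitted at each timepoint. Genes with an adjusted p (Benjamini-Hochberg) under 0.05 passed, and both thresholds also required a log2 fold change of 1 in size. Levels are TMM-scaled CPM, with a prior count of 2 where logged. No 2 libraries were alike within sampling noise (chi-square per degree of freedom of at least 88.9 over 3828 pairs). Scripts were tested on simulated data.

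Alternatives were DESeq2 1.42.0 (values rounded to 3 significant digits), RLE size factors, library totals alone, other low-count filters, 91 libraries, no animal term, and leaving out each animal. Leaving out the 7 animals in doubt was chosen after seeing the data. The members and all gene lists, as well as the animals set aside, were chosen with earlier results of these data known. Beside the members, the text names complement genes that passed both thresholds in a change from Baseline, the 2 highest and 2 lowest log2 fold changes that passed in FS animals at each timepoint in the complement, acute phase and regulator lists, and the 3 genes most like each member, apart from 1 regulator that is not reported here; COLEC11, the marker genes and the further genes of the likeness plot were chosen after their values were seen. Symbols and neighbours come from a RefSeq table of Sscrofa11.1, and no coordinates were used because the builds differ. No member sequence was used here. Figures were drawn with matplotlib 3.10.9 in Python 3.11.15.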

Additional observations from a re-analysis of the deposited data

How the results depend on the processing

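Leaving out the term for each animal (the replicate block) took the members passing from FR2 to FR8 in FS animals from 2 to 0. In that fit 23.7% of all genes passed from FR2 to FR8 in FS. It ended the FS FR8vB call of C9 (0.43, adjusted p = 0.166) and turned the FS change of C3 to -0.0320 at FR2vB and -0.18 at FR8vB. No other count of members moved by more than 1.5 times.

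The counts of members passing were 2, 3 and 3 at FS FR2vB, FR8vB and FR20vB, 1 at CPF FR8vB and 0 at CPF FR20vB. Without the 7 animals in doubt, a setting chosen after seeing the data, they were 4, 5 and 5, 3 and 4, with 6 at FS FR8vFR2, 3 at FS FR20vFR8 and 1 at CPF FR8vFR2. With the 3 Baseline libraries without albumin kept (91 libraries), they were 0, 0 and 1 in FS, 0 at CPF FR8vB and 0 at FS FR8vFR2. The shares of all genes there were 31.4%, 29.8%, 22.7%, 3.88% and 21.2%, and the members are near 0 in those 3 libraries. With library totals alone they were 5 at FS FR20vB, 3 at CPF FR8vB, and 1 at CPF FR20vB and at CPF FR8vFR2. The shares of all genes were 53.8% (89.3% of them higher), 15%, 4.21% and 7.92%. With DESeq2 they were 3 at CPF FR8vB and 2 at CPF FR20vB, beside 17.7% and 3% of genes. With both thresholds they were 0, 1 and 1 in FS and 0 at FS FR8vFR2, beside 11%, 11.8%, 9.94% and 5.96%. Beyond the values above, the cause was not tested. RLE size factors and both other filters moved no count by more than 1.5 times.

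Leaving out 1 animal at a time gave 2 to 3, 3 to 5 and 3 to 4 at FS FR2vB, FR8vB and FR20vB. It gave 0 to 1 at CPF FR8vB, 0 to 2 at CPF FR20vB, 0 to 3 at FS FR8vFR2 and 0 for every other count. The share of all genes passing was not kept for these fits. Without animal 13, C8A (adjusted p = 0.00916) and CFB (adjusted p = 0.0116) passed at CPF FR20vB. Without animal 10, 11 or 19, CFI passed at FS FR8vB.

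Several values that passed in neither fit changed sign. With library totals alone, C5 was 0.0493 at FS FR2vB, C6 0.25 at FS FR20vB and 0.23 at CPF FR20vB, and C3 0.0129 at CPF FR2vB. This scaling moved the median of all genes by 0.19, 0.25 and 0.41 in FS and 0.28 and 0.37 at CPF FR8vB and FR20vB. Under it CFB was -0.24, -0.23 and -0.25 at FS FR2vB, FR8vB and FR20vB. At FS FR20vB C8A was -0.67 and C9 1.13, and all 5 values passed. Relative to its all-gene median C8A was -1.12 at FS FR20vB. C5 (0.45 at FS FR8vB and 0.67 at FS FR20vB) and C3 (0.67 at FS FR20vB) also passed as rises. Relative to the all-gene medians these were 0.20, 0.22 and 0.22. In CPF animals C5 (0.92) and C9 (1.07) passed at FR8vB and C9 (1.22) at FR20vB. Relative to the medians these were 0.60, 0.75 and 0.80. With 91 libraries, C5 was 0.24 at FS FR2vB, and C6 0.14, 0.00397 and 0.22 at FS FR2vB, FR8vB and FR20vB. C5 at CPF FR2vB was -0.000237 with RLE and -0.00028 with DESeq2. Without the 7 animals, C9 was -0.0387 at FS FR2vB and -0.0157 at CPF FR2vB, C5 -0.0532 at CPF FR2vB, and C3 -0.39 and -0.30 at CPF FR8vB and FR20vB. Leaving out 1 animal, C3 ran from -0.0126 to 0.19 at FS FR8vB, and in CPF from -0.20 to 0.14, -0.37 to 0.38 and -0.30 to 0.46; at CPF FR2vB C5 ran from -0.0474 to 0.0496 and C9 from -0.00956 to 0.23, and at CPF FR20vB C6 ran from -0.54 to 0.0372. The CPF comparisons rest on 5 animals, and 4 at FR8.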
